A study of Mus musculus with 10 samples.

Results

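The comparison described here is the 8 h time point of an acetaminophen time course in mouse liver. It consists of the 2 of 10 Agilent 2-colour microarrays whose titles place them at 8 h, and it was chosen from those titles alone. Female C57BL/6 mice of 8 weeks were deprived of food for 24 h. Treated mice then received 1 intraperitoneal injection of acetaminophen in PBS at 350 mg/kg, controls received PBS per the treatment protocol (a label of the control RNA gives its agent as none), and livers were collected 8 h later. Fasting, strain, sex and age were shared by both groups. Control mouse 2 was hybridised with treated mouse 2 on one array, called replicate 2 here, and control mouse 3 with treated mouse 3 on the other, called replicate 3. The labels number these as separate animals, but do not say whether a control number stands for the same mouse at another time point. Treated RNA always carried Cy5 and control RNA Cy3, so drug and dye cannot be told apart for any probe at 8 h alone. The question addressed is which liver transcripts differ 8 h after the overdose.

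Acetaminophen is mostly conjugated to glucuronide and sulfate, and cytochromes P450 oxidise the remainder to a reactive quinone imine that binds glutathione. When glutathione runs out, the imine binds proteins, above all in the centrilobular hepatocytes, and mitochondria fail. Hepatocytes answer such stress with immediate early genes, the NRF2 programme of glutathione synthesis, the ATF4 response to amino acid and endoplasmic reticulum stress, and heat shock chaperones, while necrosis draws in an inflammatory response.

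Each value is a log2 ratio of treated over control after loess normalization, so 1 is a doubling of signal. Genes are written to have risen or fallen only where limma's moderated test, fitted with all 10 arrays, passed a Benjamini-Hochberg adjusted p under 0.05. Of 24007 genes tested, 3098 (12.9%) passed, 1280 of them higher (5.33%) and 1818 lower (7.57%). Higher genes thus made up 41.3% of the calls, but 6.4% when each array was centred on its median in place of loess, which moved the median of all genes from -0.012 to -0.184. The rises were the larger changes: 394 genes rose at least 2-fold (1.64% of those tested) and 232 fell at least 2-fold (0.966%). At least 8-fold, 35 genes rose and 1 transcript without a reference symbol, ENSMUST00000160499, fell.

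The ratios of one array correlated with those of the other at r = 0.798 across all genes and 0.945 across the called ones (genes are no replicates). The latter value pools changes of opposite sign, and r was 0.895 within the called rises and 0.61 within the called falls. The sign was the same on both arrays in 17087 of 24007 genes and in 3097 of the 3098 called ones, which were chosen on the mean of these arrays. Replicate 2 gave the larger ratios, with a median absolute log2 ratio over called genes of 0.784 against 0.568 on replicate 3. Replicate number, slide and scan day coincide at 8 h and cannot be told apart. Between 63.2% and 74% of probes stood well above background in each channel, and no spot was saturated. These are bulk livers, in which fewer cells of a type and less RNA per cell cannot be told apart.

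**Figure D1:**
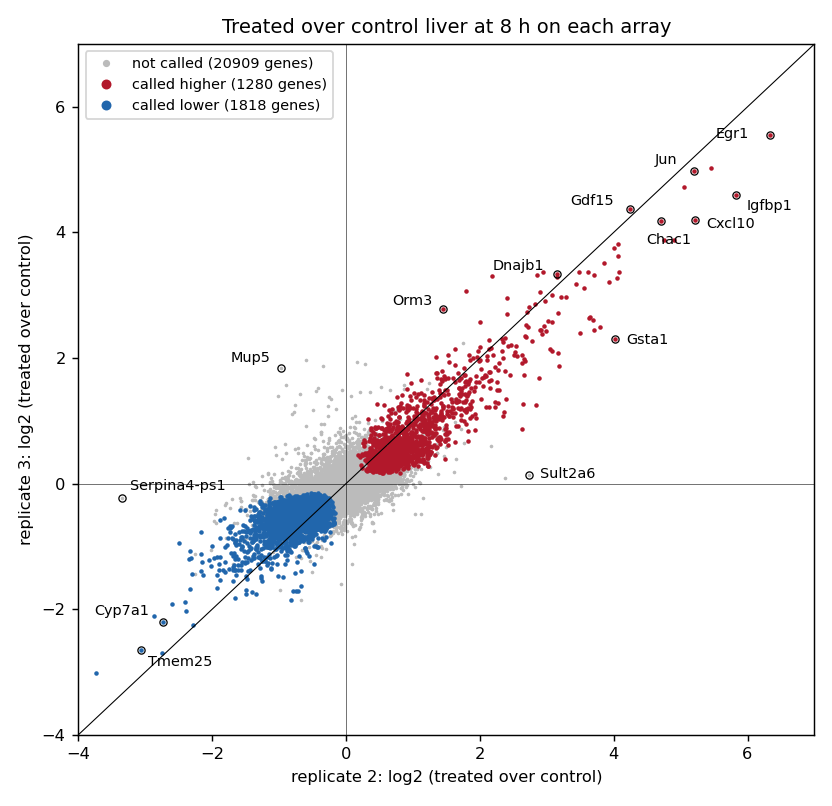
Log2 ratio of treated over control for every gene on replicate 2 (horizontal axis) and replicate 3 (vertical axis), with genes called higher in red, called lower in blue and not called in grey. The called genes share their sign and spread around the diagonal of equal ratios (r = 0.895 within rises and 0.61 within falls), with larger ratios on replicate 2 at the median. Genes such as Mup5 and Sult2a6 lie far from the diagonal.

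The largest rise belonged to Egr1, a zinc finger immediate early factor. Its level, as the log2 intensity of each channel, was 14.25 and 14.00 in treated livers 2 and 3 and 7.92 and 8.44 in the controls. Both treated livers were thus above both controls, and the log2 ratio was 5.95 ± 0.26 (SE, n = 2; limma adjusted p = 5.86e-05). Jun, an AP-1 subunit, read 15.06 and 14.80 in treated and 9.86 and 9.83 in control livers (5.09 ± 0.17, SE; limma adjusted p = 3.32e-05). Igfbp1, a hepatic binding protein for insulin-like growth factors, read 16.22 and 15.93 against 10.39 and 11.34. Mt2, a metallothionein that binds zinc and copper, read 17.17 and 17.33 against 12.12 and 12.60. Cxcl10, a chemokine for T cells, read 12.21 and 12.15 against 7.0 and 7.95 (4.70 ± 0.26, SE; limma adjusted p = 0.000153). In these genes the treated and control livers did not overlap, which the choice of the largest called rises all but ensures. The other 7 of the 12 largest rises were Ifrd1, Chac1, Fos, Gdf15, Maff, Mt1 and Rgs16. Of these Gdf15, a stress cytokine, had nearly equal log2 ratios on both arrays (4.24 on replicate 2 and 4.38 on replicate 3), and Rgs16, a brake on G protein signalling, had 4.06 and 3.62.

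The falls were smaller. Tmem25, a membrane protein of the immunoglobulin superfamily, read 8.42 and 8.86 in treated and 11.49 and 11.51 in control livers, with log2 ratios of -3.06 and -2.65. Cyp7a1, which catalyses the limiting step from cholesterol to bile acids, read 8.03 and 7.99 against 10.77 and 10.20 (-2.47 ± 0.48, SE, n = 2; limma adjusted p = 0.0156). Treated livers lay below controls in both, which the choice of the largest called falls favours. Clec2d, a ligand of natural killer cell receptors, followed with -2.88 and -2.10, Noct, a rhythmic phosphatase named nocturnin, with -2.28 and -2.25, and Hes6, a helix-loop-helix regulator, with -2.60 and -1.91. Elovl6, an elongase of long-chain fatty acids, and Mid1ip1, an activator of acetyl-CoA carboxylase, are both lipogenic and read -2.39 and -2.02, and -2.41 and -1.88. The uncharacterised 1810019D21Rik, Rsrp1, Rtp3, Aacs and Gnpda1 completed the 12. In mm9, the files' build, the probe for Jun lies at chr4:94716928-94716987, for Igfbp1 at chr11:7102442-7102501, for Cxcl10 at chr5:92775781-92775840, for Tmem25 at chr9:44601943-44602002 and for Cyp7a1 at chr4:6193456-6193515. Exon or UTR position was not analysed here.

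As a check on dye effects, the 8 h ratio was set against the 72 h ratio, where 0 genes passed limma's test (0%, and 766 at an unadjusted p under 0.05), since a constant dye effect cancels in that difference. All 12 of the largest rises and 10 of the 12 largest falls passed in it (744 genes, 3.1%, passed in all), and Cyp7a1 and Gnpda1 did not. Over all called genes 341 of 1280 rises and 386 of 1818 falls passed in it, and 1266 and 1809 kept their sign. These genes were chosen on the 8 h ratio, which is a part of the difference, so the choice itself favours a kept sign. In the treated channel at 72 h, 44.7% of probes stood well above background on replicate 1 and 75.6% on replicate 3. At 3 h these shares were 45% and 69.9%. Without replicate 2 at 8 h, the 12 rises and 6 of the 12 falls still passed, and with an intensity trend in limma's variance 7 and 8 did.

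**Figure D2:**
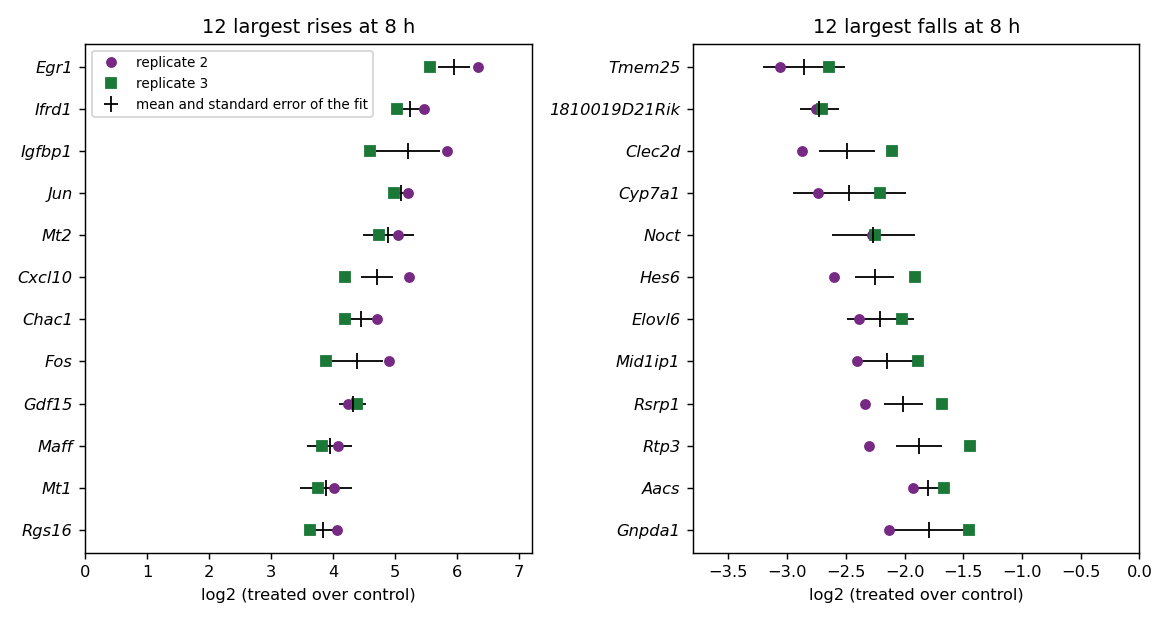
The 12 largest rises (left) and 12 largest falls (right) at 8 h, as log2 ratios of treated over control on replicate 2 (circles) and replicate 3 (squares), with the fitted mean and its standard error as bars. Every gene shown had the same direction on both arrays, and the rises reach 6.33 where the falls reach -3.06.

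The genes were then read by function in 38 lists holding 875 tested genes, of which 201 rose and 93 fell, against the 5.33% and 7.57% of all genes. Members and lists were chosen with earlier results of these data known, so a share above that of all genes is not evidence of enrichment. For each list the counts and the median log2 ratio describe the members, and no list was tested as a whole. In the difference from 72 h 111 of the 201 rises and 30 of the 93 falls passed. Of the same rises and falls 74 and 17 still passed without replicate 2 at 8 h, 149 and 55 without replicate 3, and 60 and 64 under median centring. Counts of rises and falls without replicate 2 and under median centring follow those of each list, replicate 2 being that of 8 h. A further 22 risen genes went below 0, among them Cyp2b9, Cyp2f2, Cyp3a13, Foxo1, Gars, Gldc, Hnf4a, Nfkbib, Oaz1, Sars and Xbp1.

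**Figure D3:**
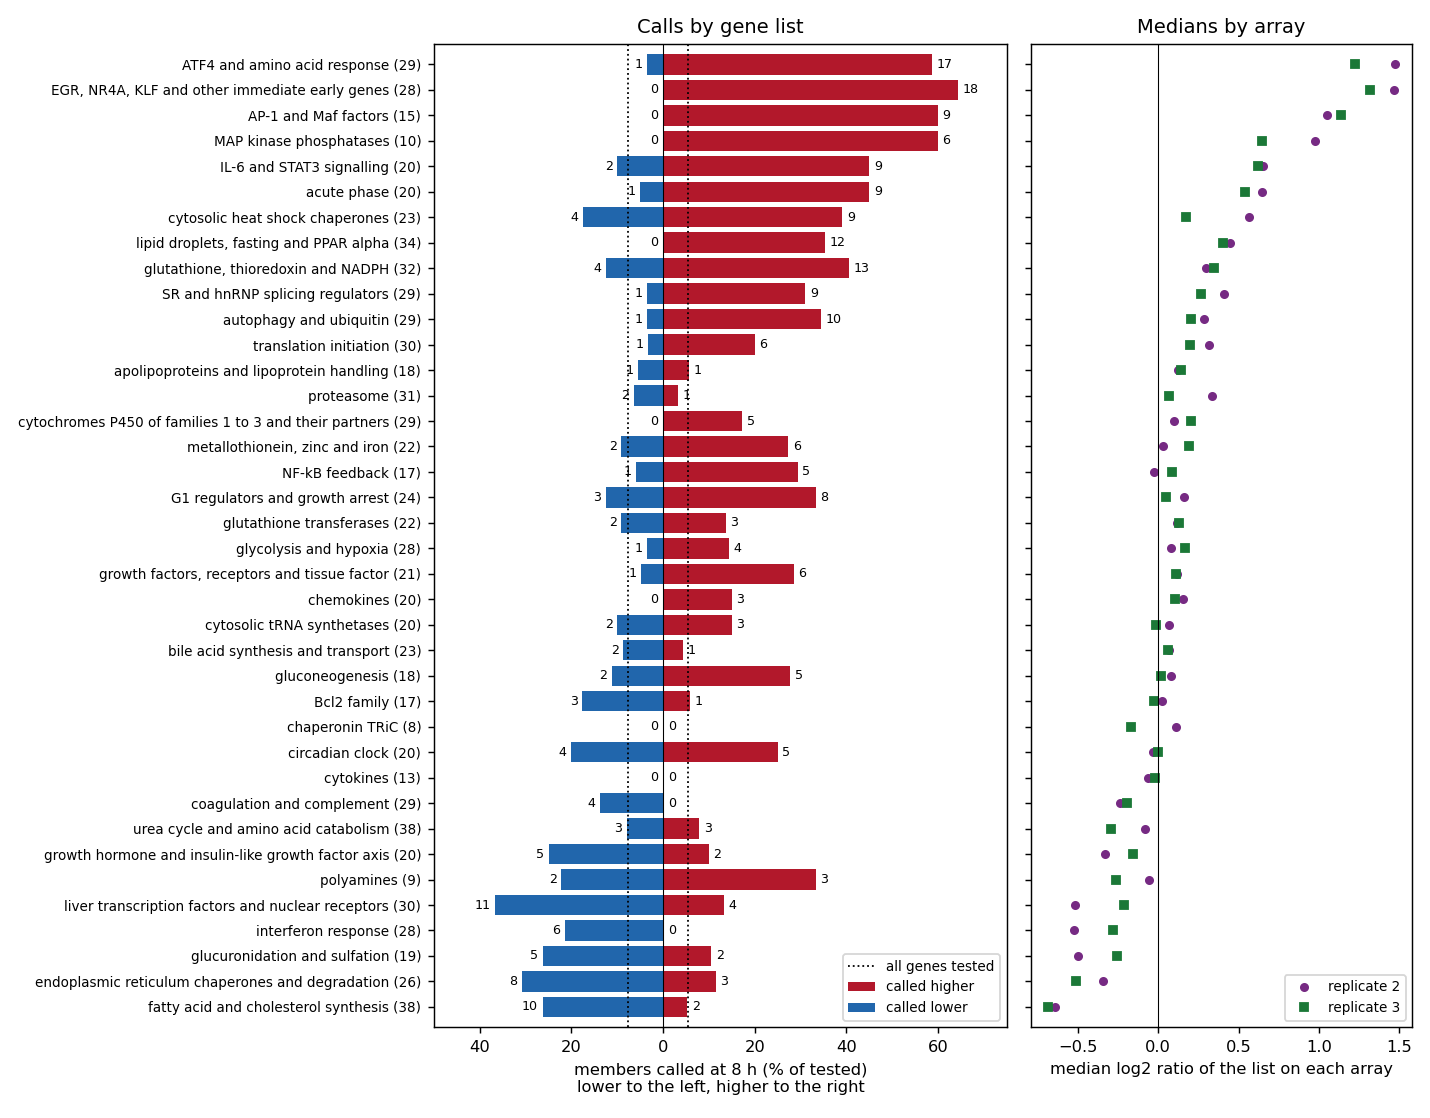
Share of each gene list's tested members (number in parentheses) called higher (red, right) or lower (blue, left) at 8 h with the counts beside the bars, and, in the right panel, the list's median log2 ratio on each array. Dotted lines mark the share over all genes, for orientation only, since members and lists were chosen with earlier results of these data known. By median, the ATF4 and immediate early lists stand at the top and fatty acid and cholesterol synthesis at the bottom.

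Transcription factors of the immediate early class made up one of the lists with the highest medians. Of 15 AP-1 and Maf factors 9 rose and 0 fell (median 1.09). Fos, the partner of Jun, read 4.90 and 3.88 on replicates 2 and 3, the small Maf factors Maff 4.07 and 3.82 and Mafk 1.59 and 1.68, and Atf3, which also dimerises with Jun, 3.49 and 3.37. Jund, Fosl2 and Fosb rose less, Fosb by 1.05 and 1.14. Fosl1, with a mean of 0.38, did not pass. Of 28 EGR, NR4A, KLF and other immediate early genes 18 rose and 0 fell (median 1.54). Among them were Klf6 (3.16 and 2.71), the anti-proliferative Btg2 (3.01 and 2.58), the matricellular Ccn1 (2.40 and 2.70) and Myc (1.97 and 2.12). Zfp36, which destabilises AU-rich mRNAs including those of cytokines, read 1.73 and 1.52. Klf15 was lower on both arrays, at -0.97 and -0.91, without passing. MAP kinase phosphatases, the feedback inhibitors of the same kinases, rose in 6 of 10, led by Dusp1 (2.38 and 2.32; 2.35 ± 0.25, limma adjusted p = 0.00159) and Dusp6 (1.91 and 1.48). Rises in the 3 lists numbered 7, 10 and 3 without replicate 2, and 6, 10 and 3 under median centring.

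Promoter stretches of 2 members show motifs of factors known to control such genes: Maff with a cyclic AMP response element, CRE, and Zfp36 with a CArG box, the serum response factor motif. The motif is in capitals, the strand is that of the gene, and the sequences are from RefSeq, build GRCm38.p6. The Maff stretch is chr15:79347451-79347519, plus strand, bases -69 to -1 from the start, and that of Zfp36 is chr7:28379237-28379326, minus strand, bases -98 to -9.
Maff: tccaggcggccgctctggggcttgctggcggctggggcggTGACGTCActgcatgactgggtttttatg
Zfp36: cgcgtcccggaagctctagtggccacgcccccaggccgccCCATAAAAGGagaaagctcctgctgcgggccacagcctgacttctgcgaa

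The ATF4 and amino acid response had 17 of 29 members higher and 1 lower (median 1.56). Its own factor Atf4 read 1.82 and 1.59, and its partner Ddit3, known as CHOP, 2.73 and 2.81 (2.77 ± 0.20, SE, n = 2; limma adjusted p = 0.000419). Trib3, a pseudokinase that feeds back on ATF4, read 3.85 and 3.52, and Ppp1r15a, which restores translation by dephosphorylating eIF2α, 2.33 and 2.30. Among the effectors, Chac1, which degrades glutathione, read 4.71 and 4.19, the hepatokine Fgf21 3.63 and 2.63, and the biosynthetic enzymes Psat1 and Asns 3.17 and 2.08, and 2.83 and 1.25. The mTORC1 inhibitor Sesn2 had 1.63 and 1.61. Shmt2, a mitochondrial serine enzyme, was the member that fell (-0.45 and -0.26). Of 20 cytosolic tRNA synthetases, also ATF4 targets in part, 3 rose (Tars, Gars, Sars) and 2 fell (Kars, Dars), with a median of 0.06 that became -0.53 under median centring. The ATF4 list had 10 rises without replicate 2 and 10 under median centring, and the synthetases 0 in either case.

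Chac1 carries in its promoter the C/EBP-ATF response element, CARE, that ATF4 dimers bind. The match is on the reverse strand, in capitals, in chr2:119351009-119351096 of GRCm38.p6, plus strand, bases -233 to -146 (RefSeq).
Chac1: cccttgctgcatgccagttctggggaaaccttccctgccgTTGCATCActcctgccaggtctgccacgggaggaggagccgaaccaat

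The endoplasmic reticulum chaperones and degradation factors moved mostly the other way, with 3 of 26 higher and 8 lower (median -0.45). The 3 were Dnajb9 (2.56 and 2.02), the BiP chaperone Hspa5 (1.58 and 1.22) and the unfolded protein response factor Xbp1 (0.45 and 0.59). Xbp1 turned to -0.20 under median centring. The 8 were the co-chaperone Sdf2l1 (-1.44 and -1.04), the disulfide isomerases Pdia4 (-1.27 and -1.13) and Pdia3, the translocon subunit Sec61b (-1.38 and -0.82), Creld2 (-0.67 and -1.39), Edem1, the lectin chaperone Calr (-0.80 and -0.77) and Dnajb11. Dnajb11 has another probe that passed in the opposite direction (0.51). Without replicate 2 the list had 0 rises and 2 falls, and under median centring 1 and 5.

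Glutathione, thioredoxin and NADPH genes rose in 13 of 32 and fell in 4, with a median of 0.31 that became -0.12 under median centring. Gclc, the catalytic subunit of the enzyme limiting glutathione synthesis, read 3.44 and 3.18 (3.31 ± 0.27, SE, n = 2; limma adjusted p = 0.000736). Its modifier subunit Gclm, at 0.15 and 0.66, and the quinone reductase Nqo1, at 0.37 and 0.54, did not pass. Haem oxygenase Hmox1 (2.94 and 3.38), Osgin1 (2.86 and 3.32), sulfiredoxin Srxn1 (2.41 and 2.96) and thioredoxin reductase Txnrd1 (2.00 and 1.98) rose, as did Txnip, the thioredoxin-binding protein, with 2.90 and 3.06. The mitochondrial thioredoxin Txn2 (-0.63 and -0.85), its reductase Txnrd2 and the peroxiredoxins Prdx2 and Prdx3 fell. Glutathione transferases, which join glutathione to electrophiles, rose in 3 of 22 (Gsta1, Gstp1, Gstm3) and fell in 2 (Gstk1, Gstz1), with a median of 0.10 that became -0.41 under median centring. Probes of these near-identical families may share signal. The redox list had 8 rises and 1 fall without replicate 2, and 4 and 1 under median centring, and the transferases 0 and 0, and 0 and 1.

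Of 22 metallothionein, zinc and iron genes 6 rose and 2 fell, with a median of 0.13 that became -0.14 under median centring. Beside Mt1 and Mt2, the zinc importer Slc39a14 (1.43 and 1.16), the zinc exporter Slc30a1, the ferritin chain Fth1 (1.17 and 1.34) and the iron hormone Hamp rose. The transferrin receptor Tfrc (-0.93 and -0.73) and Mtf1, the metal-sensing factor of metallothionein genes, fell. There were 2 rises and 0 falls without replicate 2, and 2 and 3 under median centring. The stretches below show an antioxidant response element, ARE, bound by NRF2 with a small Maf, in Txnrd1 and a metal response element, MRE, in Mt2, in capitals. That of Txnrd1 is chr10:82859074-82859162, plus strand, bases -132 to -44, with the match on the reverse strand, and that of Mt2 is chr8:94172450-94172536, plus strand, bases -168 to -82 (RefSeq, GRCm38.p6).
Txnrd1: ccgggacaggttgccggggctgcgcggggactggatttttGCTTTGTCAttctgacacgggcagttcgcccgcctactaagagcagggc
Mt2: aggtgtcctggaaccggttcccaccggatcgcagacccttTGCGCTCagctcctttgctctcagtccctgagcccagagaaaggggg

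Protein quality control genes divided by kind. Cytosolic heat shock chaperones rose in 9 of 23 and fell in 4, with a median of 0.45 that became -0.29 under median centring. Dnajb1, the HSP40 partner of HSP70, read 3.16 and 3.34 (3.25 ± 0.31, SE, n = 2; limma adjusted p = 0.00118), the small heat shock protein Hspb8 2.66 and 1.73, the constitutive HSP70 Hspa8 1.69 and 1.43, and the inducible Hspa1a 1.18 and 0.93. The co-chaperones of HSP90, Fkbp4 (-0.85 and -0.79), Stip1 and Ahsa1, fell together with Hspa4l, and Hsp90aa1 did not pass at 1.15 and 0.77. Hspa4, which rose, and Dnaja1, which rose, each have another probe that passed in the opposite direction. Of 8 subunits of the TRiC chaperonin 0 passed with limma, and 0 had an unadjusted p under 0.05 (median -0.01, and above 0 with the scanner software's own ratios, a normexp offset of 0, no background correction, slide as a block or replicate 3 left out). Autophagy and ubiquitin genes rose in 10 of 29 and fell in 1, with a median of 0.24 that became -0.16 under median centring. They included the cargo receptor Sqstm1 (2.00 and 2.17), the ubiquitin gene Ubb (1.83 and 1.62), and the autophagosome proteins Gabarapl1 (1.34 and 2.02) and Map1lc3b. Of 31 proteasome genes 1 rose and 2 fell, near the share of all genes, with a median of 0.16 that became -0.55 under median centring. Heat shock rises and falls numbered 3 and 1 without replicate 2, and 1 and 5 under median centring, and those of autophagy 6 and 0, and 0 and 2.

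Among inflammatory genes, chemokines rose in 3 of 20 and fell in 0, with a median of 0.08. These were Cxcl10, the neutrophil attractant Cxcl1 (3.69 and 2.60; 3.15 ± 0.25, SE, n = 2; limma adjusted p = 0.000676) and Ccl6 (1.62 and 1.88). Ccl2, the main attractant of monocytes, stood at 0.35 and 0.23 and did not pass. Of 13 cytokines 0 passed with limma and 1 had an unadjusted p under 0.05, and Tnf (0.08 and 0.01), Il6 (0.06 and -0.07) and Il1b (-0.13 and -0.02) stood near 0. IL-6 and STAT3 signalling genes rose in 9 of 20 and fell in 2 (median 0.63). The receptors Il1r1 (1.53 and 2.04) and Osmr, the inhibitor Socs3 (0.56 and 0.79), the kinase Pim3 (1.16 and 1.28) and the acute phase factor Cebpd (2.13 and 2.14) rose, and the receptor subunits Lifr (-1.12 and -1.34) and Il1rap fell. Acute phase proteins rose in 9 of 20 and fell in 1, with a median of 0.50 that became -0.13 under median centring. Saa2 (2.68 and 1.95), Saa1 (2.16 and 1.52), lipocalin Lcn2 (2.50 and 2.06), Orm3 (1.45 and 2.79) and Serpina3n (1.31 and 1.33) were among the rises, and Crp fell (-1.21 and -0.64). Near-identical probes may share the signal of Saa1 and Saa2 and of the Orm genes. Without replicate 2 the chemokines had 2 rises and 0 falls, the IL-6 list 3 and 2 and the acute phase list 4 and 0. Median centring gave 4 and 2, 0 and 2 (median 0.03), and 2 and 2.

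NF-κB feedback genes rose in 5 of 17 and fell in 1, with a median of 0.13 that went below 0 under median centring and without replicate 3. The 5 were the inhibitor-like Bcl3 (1.14 and 1.16), Nfkbiz and Nfkbib, the subunit Rela (0.69 and 0.86) and the adhesion molecule Vcam1 (1.15 and 1.07). The inhibitor Nfkbia, with a mean of 1.18 ± 0.39 (SE), missed the threshold (limma adjusted p = 0.0932). Interferon response genes fell in 6 of 28 and rose in 0 (median -0.36), although Cxcl10, itself interferon-inducible, rose. The 6 were the guanosine triphosphatases Igtp (-1.28 and -1.19), Irgm1 and Ifi47, the factors Stat2 (-1.34 and -0.82) and Irf1, and the RNA sensor Ddx58 (-1.19 and -0.95). The NF-κB list had 1 rise without replicate 2 and 0 under median centring, and the interferon list 0 falls and 6. The Cxcl10 promoter holds 3 matches to the NF-κB motif in its 250 bases, of which the stretch below shows 2 that overlap, in capitals. It is chr5:92348943-92349032, minus strand, bases -143 to -54 (RefSeq, GRCm38.p6).
Cxcl10: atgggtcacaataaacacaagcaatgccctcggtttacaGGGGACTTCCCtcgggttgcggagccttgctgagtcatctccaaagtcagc

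Growth arrest genes were among the largest rises. G1 regulators and growth arrest genes rose in 8 of 24 and fell in 3 (median 0.12). The p53 targets Cdkn1a (4.08 and 3.37), Trp53inp1 (3.71 and 3.33), Mdm2 (2.29 and 1.92) and Sesn1, the stress sensors Gadd45a (4.04 and 3.27), Gadd45b (2.77 and 2.27) and Gadd45g (2.71 and 2.73), and the kinase Plk3 rose. Cyclin D1, Ccnd1 (-1.31 and -1.28), its kinase Cdk4 (-1.08 and -0.60) and Ccng1 fell. Ccng1 is itself a p53 target and moved opposite to the 4 above. Growth factors, receptors and tissue factor rose in 6 of 21 and fell in 1 (median 0.09). The ligand Hbegf (1.39 and 0.74), the activin chain Inhbb (2.14 and 1.22) and the TWEAK receptor Tnfrsf12a (3.56 and 3.12) rose, and the receptor Egfr fell (-0.89 and -0.92). Areg also rose, from a control signal not well above background, so its change is given as at least 1.39-fold. In the Bcl2 family, the survival protein Bcl2l1 rose (0.68 and 1.18), while the pro-apoptotic Bax (-0.79 and -0.50) and Bad and the survival protein Bcl2l2 fell, out of 17 (median -0.01, above 0 with a normexp offset of 0 or without replicate 3). Of 9 polyamine genes, the catabolic acetyltransferase Sat1 (1.65 and 1.30), the oxidase Smox and the antizyme Oaz1 rose, and Paox (-1.72 and -1.10) and the synthase Srm (-0.59 and -0.74) fell (median -0.32). Growth arrest rises and falls numbered 6 and 0 without replicate 2 and 7 and 3 under median centring, those of growth factors 2 and 0, and 7 and 4, those of the Bcl2 family 0 and 0, and 0 and 3, and those of polyamines 0 and 2, and 0 and 3.

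Genes for oxidation and conjugation of drugs such as acetaminophen were read as separate lists. Of 29 cytochromes P450 of families 1 to 3 and their partners 5 rose and 0 fell, with a median of 0.14 that became -0.59 under median centring. Cyp2e1 (0.19 and 0.09), Cyp1a2 (-0.54 and 0.41) and Cyp3a11 (0.18 and 0.02), known to oxidise the drug, did not pass. The 5 were Cyp3a44 (1.55 and 1.16), Cyp2u1, Cyp2f2, Cyp3a13 and Cyp2b9. Among 19 glucuronidation and sulfation genes 2 rose and 5 fell (median -0.37). Ugdh, which makes UDP-glucuronate, rose (1.43 and 1.13), as did Ugt2b35 (1.02 and 0.78). The sulfate donor synthases Papss2 (-0.91 and -0.77) and Papss1, the sulfate transporter Slc26a1 (-0.87 and -0.72), Sult1a1 (-0.54 and -0.78) and Ugt2a3 (-0.94 and -0.81) fell. Of 23 bile acid genes, the exporter Abcc2 rose (0.80 and 1.23) and Cyp7a1 and the bile acid receptor Nr1h4 fell, near the share of all genes, with a median of 0.05 that became -0.41 under median centring. Without replicate 2 the P450 and the conjugation list had 0 rises and 0 falls, and the bile acid list 1 and 0. Median centring gave 0 and 1, 0 and 3, and 0 and 3.

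Lipid genes split between storage and synthesis. Lipid droplet, fasting and PPARα genes rose in 12 of 34 and fell in 0, with a median of 0.41 that became -0.11 under median centring. The droplet proteins Cidec (3.92 and 3.22), Plin2 (2.91 and 2.44), Plin5 (1.89 and 2.00) and Plin4, the pyruvate dehydrogenase kinase Pdk4 (3.71 and 2.44), and Angptl4, an inhibitor of lipoprotein lipase (2.18 and 3.30), were among them. Fatty acid and cholesterol synthesis fell in 10 of 38 and rose in 2 (median -0.66). Beside Elovl6 and Mid1ip1, the fatty acid synthase Fasn (-1.65 and -1.15), the acetyl-CoA carboxylases Acaca and Acacb (-1.38 and -1.19), Acly, the factor Srebf1 (-1.46 and -1.07) and the sterol enzymes Sc5d (-1.61 and -1.38), Idi1 (-1.55 and -1.25) and Fdps fell. Insig2, which holds SREBP in the endoplasmic reticulum, rose (3.29 and 2.97), as did the triglyceride synthase Dgat1. Scd1 (0.61 and -0.11) did not pass. The droplet list had 3 rises without replicate 2 and 2 under median centring. Synthesis had 1 fall without replicate 2, and 20 falls under median centring.

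In the gluconeogenesis list, which also holds regulators, 5 of 18 genes rose and 2 fell, with a median of 0.05 that became -0.67 under median centring. The factor Foxo3 read 3.22 and 2.97 (3.09 ± 0.13, SE, n = 2; limma adjusted p = 5.34e-05), and Foxo1, Fkbp5, Gpt2 and Sds rose less. The rate-controlling Pck1 (-0.61 and -0.67) and the glucocorticoid receptor Nr3c1 (-0.77 and -0.97) fell. G6pc, at 0.28 and 0.43, did not pass. Of 28 glycolysis and hypoxia genes 4 rose (Slc2a1, Adm and Pfkfb3 among them) and Pfkfb1 fell (-1.44 and -1.38), with a median of 0.09 that became -0.18 under median centring. The urea cycle and amino acid catabolism list had 3 of 38 higher (Tdo2, Sds, Gldc) and 3 lower (Oat, Ahcy, Cbs), near the share of all genes, and a median of -0.23. Among 18 apolipoproteins and lipoprotein genes Apoa4 rose (2.98 and 2.42) and Lrp1 fell, near the share of all genes, with a median of 0.18 that became -0.54 under median centring. Gluconeogenic genes had 1 rise and 1 fall both without replicate 2 and under median centring, and the other lists had 0 and 0 without replicate 2. Median centring gave 1 and 3 for glycolysis, 0 and 3 for amino acid catabolism and 0 and 0 for lipoproteins.

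Of 30 liver transcription factors and nuclear receptors 11 fell and 4 rose (median -0.33). Foxa2 (-1.68 and -1.38), the oestrogen receptor Esr1 (-1.66 and -1.20), Onecut2 (-1.29 and -1.34) and Onecut1, Hes6, Nr5a2, Nr1h3, Nr3c1, Thrb, Nr1h4 and Nr2f2 fell. Id2 (1.21 and 0.92), Id3 (1.07 and 0.92), Ppard and Hnf4a (0.53 and 0.48) rose, Hnf4a turning to -0.22 under median centring. In the growth hormone axis 5 of 20 fell and 2 rose (median -0.24). The receptor Prlr (-1.66 and -1.82), the STAT5 target Cish (-1.88 and -1.53), Igfals (-1.15 and -1.01), Igf1 (-0.56 and -0.54) and Irs1 fell, and Igfbp1 and Irs2 rose. Coagulation and complement genes fell in 4 of 29 and rose in 0 (median -0.20), the 4 being C8a (-1.19 and -1.17), C8b (-1.51 and -1.17), Klkb1 and Masp1. Of 20 clock genes 5 rose and 4 fell (median -0.02, above 0 without background correction and with the stricter probe filter). The repressors Nr1d1 (2.82 and 2.85) and Nfil3 (2.66 and 1.98) rose, and the activators Dbp (-1.64 and -1.46) and Hlf and the phosphatase Noct were among the falls. Without replicate 2 the factors had 1 rise and 5 falls, the growth hormone axis 1 and 1, coagulation 0 and 1 and the clock 2 and 0. Median centring gave 0 and 13, 1 and 5, 0 and 5, and 2 and 4.

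Of 29 SR and hnRNP splicing regulators 9 rose and 1 fell, with a median of 0.30 that became -0.20 under median centring. The cold-inducible Cirbp read 1.84 and 2.04 and Srsf7 1.86 and 1.27, the kinases Clk1 and Clk4 also rose, and Srsf1 fell (-1.07 and -1.16). Of 30 translation initiation genes 6 rose, among them Eif5 (1.23 and 1.07) and the eIF2α kinase Eif2ak3, known as PERK (1.16 and 0.85), and the scaffold Eif4g1 fell, with a median of 0.23 that became -0.39 under median centring. Neither list had a rise without replicate 2 or under median centring.

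Motifs of 10 kinds were searched on both strands in the 250 bases before the start, in 32851 RefSeq mouse windows. Of the genes tested 13734 had a window, among them 288 that rose at least 2-fold and 162 that fell at least 2-fold. A gene can have several windows, and it holds a motif if any of them does. For each motif the share of windows is thus not in the same unit as the shares of risen and fallen genes. The like share is that of all tested genes, given further below. A match is a description of letters and not a site. TGACTCA, the AP-1 motif, was in 4.46% of all windows, 9.03% of the rises and 4.32% of the falls. TGACGTCA, the CRE, was in 1.55%, 6.25% and 1.23%, and the CArG box in 1.47%, 3.47% and 0%. TGATGNAA, the CARE, was in 3.45%, 6.6% and 3.09%. TGACNNNGC, the ARE, was in 10.2%, 18.8% and 14.2%. The NF-κB motif was in 7.25%, 13.9% and 9.26%. A stretch can match both the AP-1 motif and the ARE. Among all tested genes with a window the shares were 4.6% for AP-1, 2.51% for the CRE, 3.02% for the CARE, 13.1% for the ARE and 9.8% for NF-κB, so the risen genes held each of these more often, and no test was made. TGCGCNC, the MRE, was in 12.5%, 23.3% and 22.2%, and CACGTG, the E-box, in 6.02%, 11.5% and 10.5%. The SREBP motif TCACNCCA was in 3.67%, 5.56% and 6.17%, and the heat shock element HSE in 0.47%, 0% and 0.62%. All tested genes with a window held the MRE in 20.3%, the E-box in 8.51%, the SREBP motif in 3.99%, the HSE in 0.47% and the CArG box in 1.57%. The risen genes thus held every motif searched except the HSE more often, so a higher share was not particular to any of them. Within the lists assigned to each motif, the CARE was in 6 of 19 called members with a window and in 11 of 38 members in all (ATF4 and synthetase lists). For the ARE these counts were 2 of 13 and 9 of 48, for NF-κB 2 of 13 and 10 of 39, for the MRE 1 of 5 and 3 of 17, for the CRE 2 of 23 and 2 of 34, and for the CArG box 2 of 23 and 3 of 34. No called member of its own lists held AP-1 (0 of 23), the SREBP motif (0 of 9), the HSE (0 of 8) or the E-box (0 of 5).

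Markers of cell types were read for the whole of each list, against the 5.33% of all genes that rose and the 7.57% that fell. As with the lists above, none was tested as a whole. Of 10 hepatocyte markers Alb (0.92 and 1.06) and Fgb (1.29 and 1.20) rose and 0 fell. Of 11 neutrophil markers 0 passed with limma and 0 had an unadjusted p under 0.05, with S100a8 at 0.21 and 0.65 and S100a9 at 0.38 and 0.89. Of these 11, 5 were not well above background in either control and 4 in either treated liver, so they could show little. Of 11 Kupffer cell markers 0 passed and 1 had an unadjusted p under 0.05, but the arrays differed: the list's median log2 ratio was 0.02 on replicate 2 and 0.58 on replicate 3, where Marco read 1.54 and Clec4f 1.08. Their summed intensity was 6419 and 8566 in treated against 6122 and 4145 in control livers. Of 8 monocyte markers 0 passed and 0 had an unadjusted p under 0.05. Of 12 sinusoidal endothelial markers Oit3 and Egfl7 fell, and 5 had an unadjusted p under 0.05. By mean 11 members were below 0 and 1, Lyve1 (1.24 and 0.44), above. Here too the arrays differed, with a list median of -0.45 on replicate 2 and -0.01 on replicate 3. The list's summed intensity was 6603 and 8252 in treated against 11240 and 9529 in control livers. That sum is weighted toward its brightest members, such as Egfl7, Kdr and Clec4g. Of 10 stellate cell markers 1 fell. In the lists for cholangiocytes, T and NK cells, B cells, erythroid cells and platelets, acinar cells and adipocytes 0 passed, and at most 1 member of each had an unadjusted p under 0.05. The Cxcl1, Cxcl10 and acute phase rises stand beside neutrophil and monocyte lists in which 0 passed and part of the members had no signal above background. The part of the Kupffer and endothelial levels in these results was not tested.

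The ratios at 8 h were also compared with those at 3 h and 24 h. At 3 h, 365 of the 1280 rises were also called higher and 529 of the 1818 falls also called lower. Egr1, Jun, Igfbp1 and Mt2, among the largest rises, stood at 5.46, 4.49, 6.15 and 5.52 at 3 h already. For these genes the difference from 3 h did not pass. Between 3 h and 8 h, 198 genes differed (0.825% of those tested), 128 toward higher (0.533%) and 70 toward lower ratios (0.292%). Cxcl10 went from -0.52 at 3 h to 4.70, a difference of 5.22 ± 0.37 (SE; limma adjusted p = 0.00485), and Cxcl1 from -0.19 to 3.15. Bcl3 went from -2.01 to 1.15, and Hsph1, an HSP110 chaperone, from -2.49 to 0.53, a level at 8 h that did not pass. Dnajb9, Hspa5, Txnrd1, Lcn2, Sqstm1, Cidec, Ccn1 and Myc also differed toward higher ratios at 8 h, Txnrd1 by 1.96 ± 0.20 and Hspa5 by 2.14 ± 0.35. On the lower side stood Pstpip2 (0.32 at 3 h and -1.54 at 8 h), Paox (0.42 and -1.41) and some fasting genes of glucose output. G6pc, glucose 6-phosphatase, went from 2.89 to 0.35 and no longer passed, Pck1 from 1.66 to -0.64 and the serine dehydratase Sds from 2.48 to 0.83. The number of differences fell to 37 with the scanner software's own ratios, 0 under median centring and 4 without replicate 1 at 3 h.

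Between 8 h and 24 h, 1508 genes differed (6.28%), 591 toward higher (2.46%) and 917 toward lower ratios (3.82%). Chac1 was lower at 24 h by 4.69 on the log2 scale, Rgs16 by 4.59, Fos by 4.08, Egr1 by 4.04 and the mitochondrial carrier Slc25a47 by 4.38. Slc25a47 stood at 3.08 and 3.00 at 8 h and at -1.34 at 24 h. Of the metabolic lists, 28 of the 38 urea cycle and amino acid genes and 17 of the 29 cytochrome P450 genes differed toward lower ratios, with medians at 24 h of -1.99 and -1.37. Tardbp, the RNA-binding protein TDP-43 (-1.41 and -1.72 at 8 h, 1.62 at 24 h), went the other way. In all, 59 genes rose at 8 h and fell at 24 h with the difference called, and 60 did the reverse. The number of differences from 8 h to 24 h was 2 under median centring and 541 without replicate 2 at 8 h.

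The test called 1786 genes at 3 h (7.44%), 2611 at 24 h (10.9%) and 7541 at 48 h (31.4%). Calls at 8 h alone among the 5 time points numbered 301 of the 1280 rises (23.5%) and 486 of the 1818 falls (26.7%). Insig2, Dnajb1, Il1r1, Fbxo30 (2.13 and 1.64) and Mideas (2.14 and 1.78) were such rises, and Lasp1, Mtfp1 (-1.49 and -1.76), Plxnd1 (-1.69 and -1.33) and Celsr1 such falls. A call at 1 time point is not a test of a difference from the others.

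**Figure D4:**
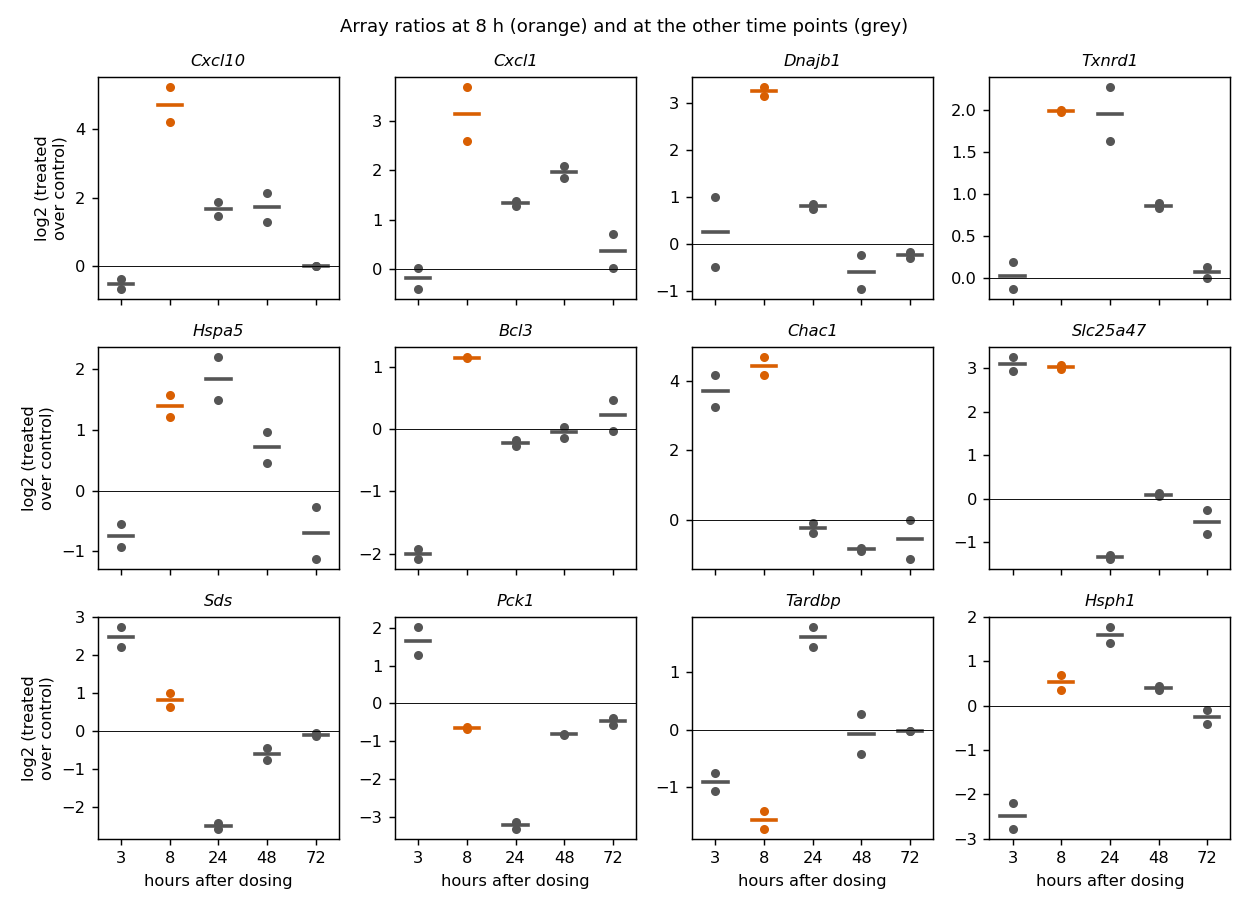
Log2 ratio of treated over control on each array (points) and their mean (line) against hours after dosing for 12 genes, with 8 h in orange and the other times in grey. Cxcl10, Cxcl1, Dnajb1 and Bcl3 are highest at 8 h, while Sds and Pck1 descend from 3 h to 24 h.

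The genes whose ratios differed most between the 8 h arrays are given as a description. Mup5, a major urinary protein, read -0.97 on replicate 2 and 1.84 on replicate 3, and Mup18, Mup19 and Mup20 likewise changed sign between the arrays. Serpina4-ps1, a pseudogene, read -3.34 and -0.22. The sulfotransferases Sult2a6 (2.73 and 0.14) and Sult2a4 (2.38 and 0.09) were high on replicate 2 only, and so in part were Sult1e1 (2.64 and 0.86), Gsta1 (4.02 and 2.31) and Asns, which all passed. The channel levels differed between the controls, between the treated livers, or both. Mup5 was 15.65 in control 2 and 13.48 in control 3, against 14.68 and 15.32 in the treated livers, and Sult2a6 was 10.33 and 12.27 in the controls against 13.06 and 12.41. For Mup18 the treated livers were further apart (15.11 and 16.54) than the controls (16.13 and 15.14), as they were for Mup19, Ift27 and Sult1e1. Mup, Sult2a and Gsta genes are near-identical families, so the member a probe reads is uncertain.

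**Figure D5:**
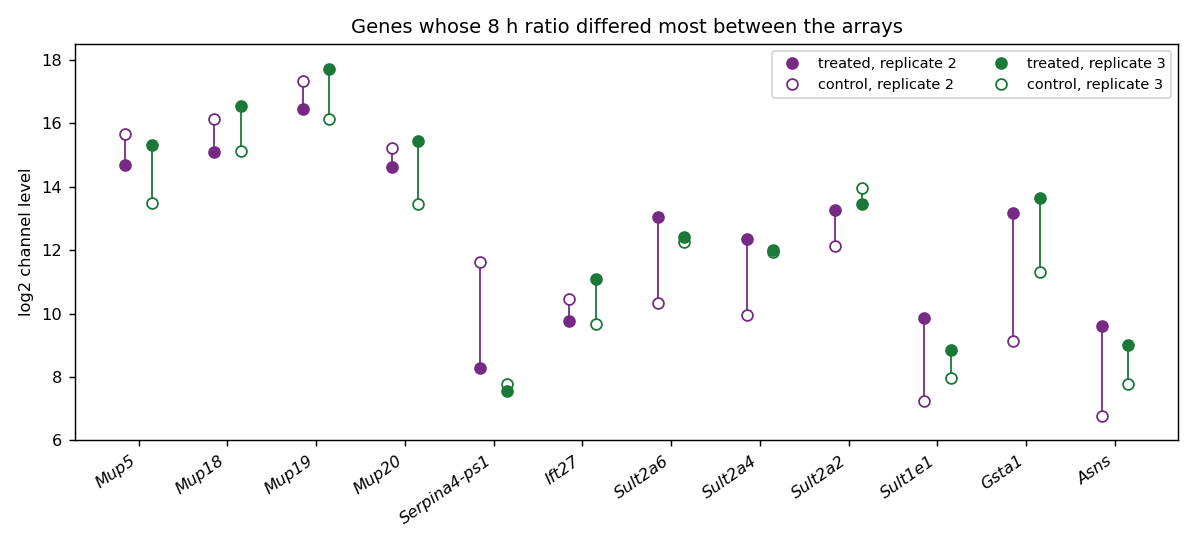
Log2 channel level of treated (filled) and control (open) livers on replicate 2 (purple) and replicate 3 (green) for the 12 genes whose 8 h ratio differed most between the arrays. The controls are apart by more than the treated livers in Mup5, Serpina4-ps1, Sult2a6 and Gsta1, and the treated livers by more in Mup18, Mup19, Ift27 and Sult1e1.

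Probe choice also touched 13 genes that had probes called in opposite directions at 8 h. Besides Hspa4 (1.36 against -1.16 and -0.64), Dnaja1 and Dnajb11, these included Atxn7, Btbd1, Chpf2, Itsn1, Nip7, Nlrx1, Snu13, Ssbp1 and Zfx. The direction of these genes at 8 h is uncertain. As a check of the labels, Xist fell, reading 8.30 and 8.44 in treated and 9.23 and 9.15 in control livers, and all 4 livers gave signal of this transcript of the inactive X chromosome.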

How the data were processed

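RNA of each liver was hybridised to 2-colour arrays. The deposited files give, per the file headers, mean and background intensity of both channels from Agilent Feature Extraction 10.7.3.1, the software's dye-corrected log10 ratio (Cy5 over Cy3), and quality flags. The authors' value table holds a score equal to 1.443 times that log10 ratio on each array, its scale not stated, with a median of 0, used rescaled as an alternative. Here limma 3.58.1 (R 4.3.3) corrected intensities with normexp (offset 50) and loess. Weight 0 was given to 1377 control spots, and 2718 outlier spots were left out. Probes well above background in 1 channel on both arrays of a time point were kept (29623 of 39429), and the brightest represented each of 24007 genes, 17625 of them with a RefSeq symbol (GRCm38.p6). lmFit and eBayes used 1 coefficient per time point (5 residual degrees of freedom, Benjamini-Hochberg 0.05). Channel levels were scaled with Aquantile, and the fold of a gene not above background is a lower bound. The script was tested on simulated data. The number of arrays limits precision. The p-values measure the spread between the 2 arrays of a time point, pooled over the 5 time points. In that spread animal, slide and scan day cannot be told apart. The named genes were the 12 largest called rises and falls, the 6 largest in each direction of each contrast between times, calls at 8 h alone, and the lists' members, some of which are not reported here. Members and lists were chosen with earlier results of these data known. Alternatives covered background, scaling, filter, probe choice, variance trend, slide, scan day and each array left out.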

Additional observations from a re-analysis of the deposited data

Results flagged for a closer look

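The differences listed here are changes in the treated over control log2 ratio between 8 h and a neighbouring time point that passed limma's test of the difference itself. From 3 h to 8 h 198 genes differed. Higher at 8 h were Cxcl10 by 5.22, Cxcl1 by 3.34, Bcl3 by 3.16, Hsph1 by 3.02, Ifrd1 by 3.01 and Dnajb1 by 3.00. Lower were G6pc with -2.53, Pck1 with -2.29, Pstpip2 with -1.86, Paox with -1.83, Sds with -1.65 and Ppargc1a with -1.58. Some genes were called in opposite directions at the 2 time points. Those lower at 3 h and higher at 8 h included 2010003K11Rik (2.77), Ctps (2.54), Dnaja1 (2.23), Trmt61a (1.85) and Exosc6 (1.77). The reverse held for Cdc14b (-1.37), Mllt10 (-1.17), Gcat (-1.12) and Crebl2 (-1.05), as for Pck1. Another probe of Dnaja1 passed as a fall at 8 h (-0.44), so the direction of this gene is uncertain.

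From 8 h to 24 h 1508 genes differed. Higher at 24 h were Tardbp by 3.18, Ccl5 by 3.09, Gm10375 by 3.06 (its probe was not well above background in either treated liver at 8 h), BC061237 by 2.68 and Lce3c by 2.64. Lower were Chac1 with -4.69, Rgs16 with -4.59, Slc25a47 with -4.38, Fos with -4.08, Egr1 with -4.04 and Ifrd1 with -3.76. Among genes called in opposite directions, Coq8a (-3.67), Sds (-3.31), Lpin1 (-3.12), Herpud1 (-2.70) and Hsd17b13 (-2.61) were high at 8 h and low at 24 h, and Creld2 (2.60), Aimp2 (2.27), Pagr1a (2.23) and Ppp1r14b (2.02) were the reverse. Ccl5, at -0.44 and 0.19 on the 8 h arrays, did not pass at 8 h.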

How the results depend on the processing

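Of 328 called genes in the lists or named, median centring kept 149, left 157 short of the threshold and turned 22, and the software's own ratios kept 246. Those turned included Creb3l3 (-0.11), Cyp2b9 (-0.13), Cyp2f2 (-0.07), Cyp3a13 (-0.076), Eif6 (-0.03), Foxo1 (-0.11), Gars (-0.16), Gldc (-0.26), Gpx1 (-0.19), Gsr (-0.063), Gss (-0.10), Hnf4a (-0.22), Hnrnpa2b1 (-0.20), Hnrnph1 (-0.10), Nfkbib (-0.059), Oaz1 (-0.12), Prdx1 (-0.13), Psma5 (-0.074), Sars (-0.19), Srsf2 (-0.074) and Xbp1 (-0.20). Averaging all probes turned Hspa4 to -0.14. The cause was not tested.

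The 3098 calls at 8 h numbered 1142 (587 higher, 555 lower) when only the 8 h arrays were fitted, and the rises numbered 162 under median centring and the falls 1147 with an offset of 0. The 198 differences from 3 h numbered 111 with an offset of 0, 398 without background correction, 0 under median centring (1484 at an unadjusted p under 0.05 with limma) and 37 with the software's ratios or the authors' table. The 1508 differences at 24 h numbered 2887 without background correction and 2 under median centring. The 744 differences from 72 h numbered 408, 1358 and 6 under an offset of 0, no background correction and median centring. With scan day as a replicate block the counts were 3078 at 8 h and 115 for 3 h to 8 h. The 8 h arrays share replicate number 3 with the other times, control number 2 recurs in the titles of other times too, and no label says that a number marks the same animal, so this is not a pairing from the design.

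Leaving out each array in turn gave 415 (without replicate 2 at 8 h) to 3336 calls at 8 h, 208 to 1390 rises and 207 to 1946 falls, and 4 (without replicate 1 at 3 h) to 550 differences from 3 h, 541 to 1681 at 24 h and 76 to 838 from 72 h. The lone array left at a time point was assumed to vary like the other pairs. Without replicate 2 at 8 h, 404 of the 415 calls were among the 3098.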
